A study of Oryza sativa Japonica Group with 12 samples.

Results

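Normal seed set in rice, from just before the spikelets open (BF) to 5 days after pollination (5 DAP), was followed in panicles of the wild type (WT) alone. These were the 3 arrays of WT panicles before flowering (WBF) and the 3 arrays of WT panicles at 5 DAP (W5D), 6 of the 12 arrays of the series, taken by their genotype and stage labels. The WT is the japonica line, cv. Junambyeo, in which the spontaneous female-sterile mutant fst (earlier name cynosure) arose. The other 6 arrays are fst panicles at the same stages (MBF and M5D) by title, source name and genotype, although their description label reads as wild lines, and their frame-shift deletion lies in the MADS box of FST, the gene OsMADS29. All plants grew in a greenhouse in natural daylight, with no other treatment. Each array measured total RNA of a pool of 20 whole panicles from 10 plants, so stems of the panicle, glumes, floral organs and young grains contributed to every value, and no source used here says how many days before flowering the BF panicles were cut. The series compared WT and fst to learn what FST does in ovule and seed. The comparison described here asks which transcripts change over normal flowering and early grain growth, and fst, in which embryo and endosperm begin to develop but stop before the grain fills, is set beside it.

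A rice spikelet opens when its lodicules swell, the filaments lengthen and the anthers shed pollen, and it closes again within hours, after which lodicules and stamens wither. Double fertilization starts an embryo and an endosperm, whose nuclei first divide freely, are then walled off, and later fill with starch and with the storage proteins glutelin and prolamin. Around them the ovary wall and the nucellus grow and pass sugar from the phloem to the endosperm.

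Signals are intensities on a linear scale. Changes are log2 differences between the stages, with the standard error (SE) and the adjusted p of limma over all probe sets, and a change passed the test when that p was under 0.05. Of 57258 probe sets, 9364 (16.4%) passed as higher and 8554 (14.9%) as lower at 5 DAP in WT, 31.3% in all, and the median change of all probe sets was 0.06. At least a 4-fold change, the fold used in the study, was found for 970 higher (1.69%) and 1180 lower probe sets (2.06%). All 3 W5D arrays lay above all 3 WBF arrays for 26.9% of the probe sets and below them for 21.0%. The lists below hold 1 probe set per gene, and over all 17905 genes so represented 26.5% passed as higher and 25.1% as lower. Correlations between arrays (log2) were 0.995 to 0.996 within WBF, 0.994 to 0.995 within W5D and 0.930 to 0.941 between the stages. The arrays of a group were labelled as biological replicates, and 3 against 3 arrays allow no exact permutation p below 0.1.

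The falls were larger than the rises. At least 100-fold falls were called for 175 probe sets and such rises for 54, and at least 10-fold falls and rises for 613 and 304. The 1180 probe sets that fell at least 4-fold held 7.81% ± 0.338 (SD, n = 3) of the summed signal before flowering and 0.352% ± 0.00549 (SD, n = 3) at 5 DAP, and 17 of the 100 brightest probe sets of WBF were among them. The 970 that rose at least 4-fold went from 0.465% ± 0.0308 to 4.62% ± 0.597 (SD, n = 3), and 6 of the 100 brightest probe sets of W5D were among them. These shares follow from how the probe sets were chosen. The lower of the stage means was below 16, near the lower quartile of the arrays (10.1 to 10.7 in WT), for 300 of the rises and 419 of the falls, whose fold change therefore depends on the background level. In pooled panicles, fewer cells of a type and less RNA per cell cannot be told apart.

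**Figure D1:**
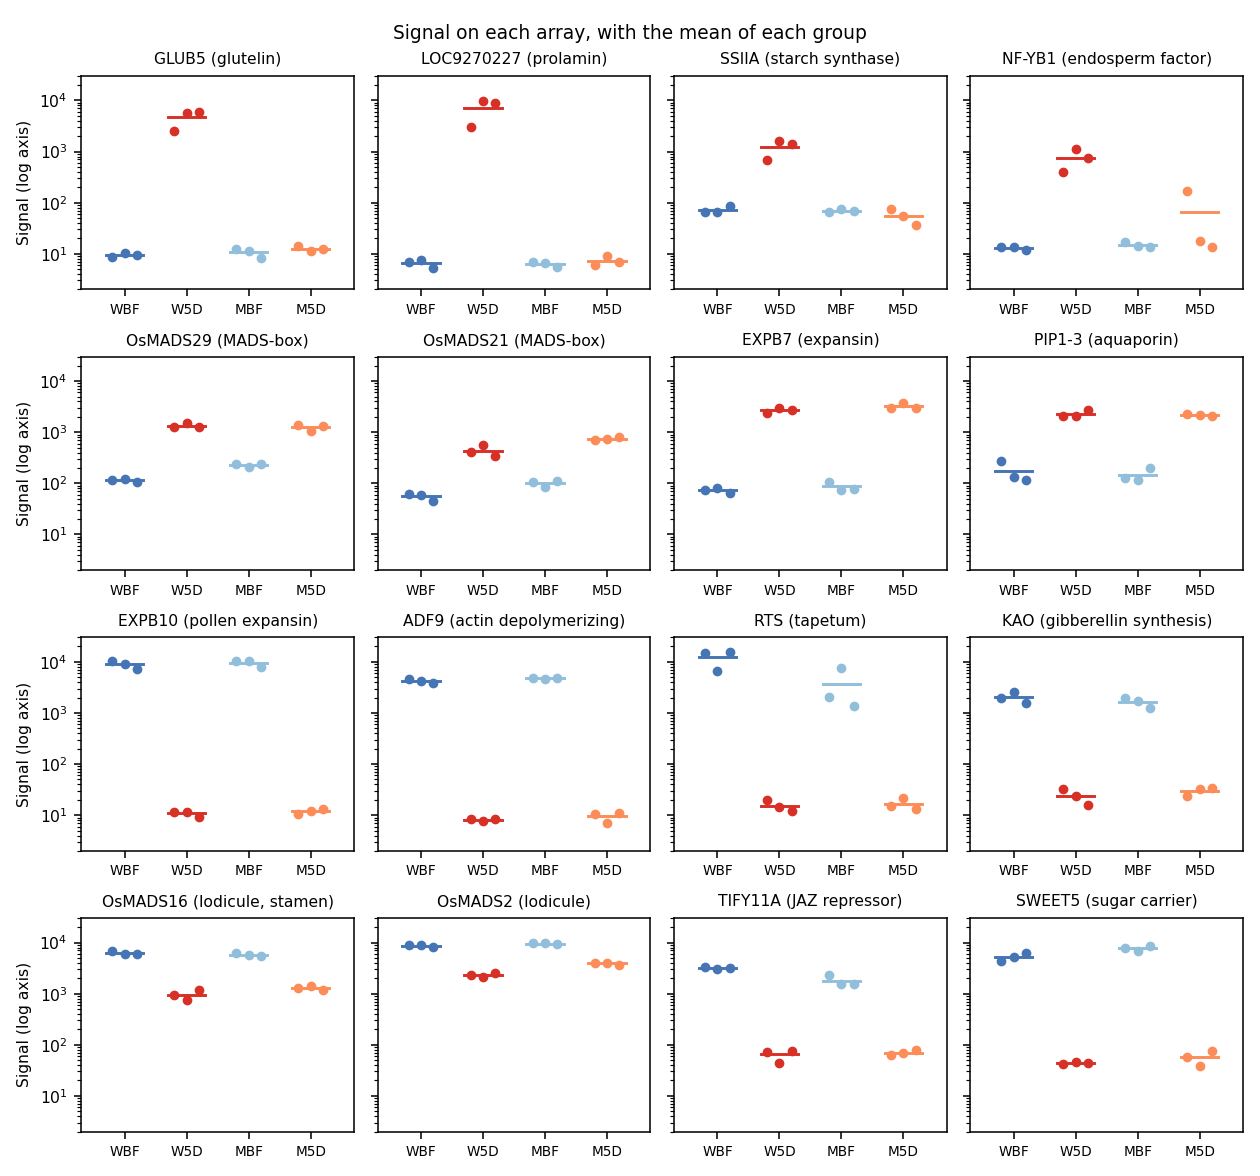
Signal (log axis) of 16 genes on each of the 12 arrays, by group, with points for arrays and lines for the arithmetic mean of 3. The storage genes are high on the W5D arrays alone, with W5D replicate 1 lowest, while the pollen gene EXPB10 falls from a WBF mean of 9041 to a W5D mean of 10.8 and falls as far in fst.

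Storage proteins of the endosperm filled most of the largest rises. Of 9 genes measured in the list of seed storage proteins, 7 passed as higher and 1 as lower, with a median change of 6.69. GLUB5, a glutelin, gave signals of 8.74, 10.1 and 9.45 on the WBF arrays and 2507, 5805 and 6050.1 on the W5D arrays. It rose by 8.88 (SE 0.27, adjusted p = 2.95e-11), with the stages far apart on every array. LOC9270227, described as a prolamin, had the largest rise among genes with separate arrays and signals above the median. Its signals were 6.80, 7.54 and 5.23 on the WBF arrays and 2963, 9715 and 8856 on the W5D arrays, a change of 9.94 (SE 0.35, adjusted p = 1.13e-10). LOC4341135, also described as a prolamin, gave signals of 7.14, 6.78 and 5.94 on the WBF arrays and 1806, 4083 and 3703 on the W5D arrays (log2 change 8.83, SE 0.25, adjusted p = 1.09e-11). The glutelins GLUA3 and GLUA1 rose by 8.18 and 7.92, and LOC4329275, described as a glutelin, by 8.22. The prolamin PROLM25 rose by 5.30 and the glutelin GLUC by 7.12. RAG2, a seed allergenic protein, gave signals of 6.67, 5.85 and 6.88 on the WBF arrays and 1076, 2807 and 2575 on the W5D arrays on its brightest-changing probe set (log2 change 8.26, SE 0.29, adjusted p = 1.11e-10), while RAG1, the gene beside it, gave signals of 7.92, 6.63 and 7.22 on the WBF arrays and 28.9, 51.6 and 36.8 on the W5D arrays (log2 change 2.39, SE 0.18, adjusted p = 2.7e-07).

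W5D replicate 1 was the lowest of the W5D arrays for each of these genes. The summed signal of the 9 storage genes ran from 593 to 714 on the WBF arrays and from 5591 to 19357 on the W5D arrays. Without W5D replicate 1, the change of GLUA1 went from 7.92 to 8.52 and that of LOC4329275 from 8.22 to 8.82, and PROLM25 and GLUC went to 6.14 and 8.11 without it and to 4.68 and 6.12 without W5D replicate 2. None of these calls was lost. Replicate 1 was also the lowest W5D array for 452 of all 970 probe sets that rose at least 4-fold, against 227 for replicate 2 and 291 for replicate 3. The pool behind it differed from the other W5D pools in the level of endosperm transcripts, and the part of that in the results was not tested.

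GLUA2, a glutelin used here as an endosperm marker, could not be read from a single value. Its probe sets were called in opposite directions, with a change of 6.69 (SE 0.34, adjusted p = 6.8e-09) on the one with mean signals of 38.4 in WBF and 4460 in W5D, and of -1.78 (SE 0.17, adjusted p = 3.36e-06) on the other, at 571 and 167. The latter is the probe set that stands for GLUA2 in the list, and it fell in fst as well (log2 change in fst -2.40). Among 30 named genes with several probe sets, GLUA2 was the only gene with opposite calls. In others, among them SSIIA, IAA31 and YSL12 described below, only 1 of 2 probe sets was called.

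Starch synthesis genes rose over a smaller range. Of 7 genes measured, 5 passed as higher and none as lower, with a median of 1.26. SSIIA, the starch synthase that lengthens amylopectin chains, gave signals of 66.0, 66.1 and 85.8 on the WBF arrays and 694, 1612 and 1407 on the W5D arrays. Its change was 4.01 (SE 0.29, adjusted p = 2.27e-07). AGPS2, a small subunit of ADP-glucose pyrophosphorylase, which makes the glucose donor of starch, gave signals of 1287, 1449 and 1276 on the WBF arrays and 2423, 4425 and 3576 on the W5D arrays (log2 change 1.34, SE 0.17, adjusted p = 5.25e-05). Transcripts of both were present before flowering, AGPS2 far above the median of the arrays. SBE1, a starch branching enzyme, rose by 1.26 (SE 0.21, adjusted p = 0.000392). WX1, the granule-bound starch synthase that makes amylose, gave signals of 1316, 1589 and 904 on the WBF arrays and 2424, 5577 and 5015 on the W5D arrays on its brightest probe set. The stages did not overlap there, yet the change of 1.72 did not pass the test (SE 0.84, adjusted p = 0.148), although it passed in a fit of the 6 WT arrays alone (adjusted p = 0.00305), while 4 of its 5 dimmer probe sets rose, 3 of them by 2.02 to 2.53, with adjusted p from 0.00116 to 0.0172. LOC4328656, described as Brittle-1, the carrier that brings ADP-glucose into the amyloplast, gave signals of 8.59, 10.3 and 10.3 on the WBF arrays and 2169, 2876 and 2330.2 on the W5D arrays. With 7.97 (SE 0.31, adjusted p = 3.4e-10) it changed about as much as the glutelins, and its W5D arrays lay closer together.

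Regulators known from endosperm were few on the lists. NF-YB1, a CCAAT-binding factor of the endosperm, gave signals of 13.5, 13.4 and 11.9 on the WBF arrays and 392, 1115 and 740.4 on the W5D arrays (log2 change 5.73, SE 0.69, adjusted p = 3.06e-05). RSR1, known in rice as a negative regulator of starch synthesis genes, went the other way, from 139 to 89.2 (log2 change -0.64, SE 0.11, adjusted p = 0.000467). LOC4350574, described as a NAM (NAC) family protein, and LOC4343901, described as a DUF581 domain protein, rose by 7.72 (adjusted p = 2.67e-05) and 8.52 (adjusted p = 1.45e-07). Both were under 16 on every WBF array and at least 982 on every W5D array.

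Several cystatins, lipid transfer proteins and aquaporins rose as well. The cystatin OC-IV, an inhibitor of cysteine proteases, gave signals of 26.9, 23.4 and 27.8 on the WBF arrays and 502, 1992 and 1189.5 on the W5D arrays (log2 change 5.35, SE 0.41, adjusted p = 4.4e-07), and OC-VI rose by 4.57 (SE 0.51, adjusted p = 1.55e-05). Of 8 cystatins 5 passed as higher and none as lower. TIP3-1, an aquaporin of the vacuole membrane known from seeds, gave signals of 11.1, 15.7 and 15.7 on the WBF arrays and 873, 2943 and 2063 on the W5D arrays (log2 change 6.96, SE 0.38, adjusted p = 1.16e-08), and its relative TIP3-2 rose by 2.24 at much lower signals. LTP-2, a lipid transfer protein, gave signals of 89.3, 159.9 and 153 on the WBF arrays and 1849, 4076 and 3491 on the W5D arrays (log2 change 4.52, SE 0.27, adjusted p = 2.97e-08), and the lipid transfer protein LTP110-A went from 3962 to 8748. Of the 14 names in the list of lipid transfer proteins 3 were measured, and all 3 passed as higher. The third, LTPL1, rose by 0.43 (adjusted p = 0.023). That call was lost without WBF replicate 1 or 2 or without W5D replicate 1 or 2 (adjusted p 0.0601 to 0.0903). Outside this list, C6, a lipid transfer protein of the tapetum, fell by 5.71. LOC4348109, whose description includes the lipid transfer family, fell by 7.57.

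Embryo and late embryogenesis genes did not move one way. Of 13 measured, 4 passed as higher and 6 as lower, against 26.5% and 25.1% of all genes, with a median of 0.00. Without WBF replicate 1 or without W5D replicate 2, 2 passed as higher. VP1, a regulator of seed maturation that acts with abscisic acid, gave signals of 10.5, 9.52 and 8.01 on the WBF arrays and 25.2, 52.3 and 36.8 on the W5D arrays (log2 change 1.97, SE 0.22, adjusted p = 1.72e-05), a rise that stayed within low signals. EMP1, a late embryogenesis abundant protein, gave signals of 55.1, 38.7 and 109 on the WBF arrays and 113, 624 and 149.9 on the W5D arrays (log2 change 1.83, SE 0.54, adjusted p = 0.0188). W5D replicate 2 was the highest array, and without it the change was 1.08 with an adjusted p of 0.0599. The call was also lost without WBF replicate 1 (adjusted p = 0.0597) or replicate 2 (0.0841). LFL1, a B3 factor related to FUSCA3, fell by 2.62 (adjusted p = 4.9e-06), and the dehydrin RAB16A fell by 1.16 (adjusted p = 0.000188). Of the embryo markers measured, ROC1, an epidermis factor, went from 539 to 792 (adjusted p = 0.000447) and OSH1, a homeobox factor of meristems and the embryo axis, from 931 to 530.2 (adjusted p = 0.00573). Both are expressed in panicles before flowering too.

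Cell division genes passed the test about as often as all genes. Of 45 measured, 10 passed as higher and 11 as lower, against 26.5% and 25.1% of all genes, with a median of 0.11, the latter count being 7 without WBF replicate 1 or 2 or without W5D replicate 1 or 2, and of 7 histones 2 passed as higher. CYCB2-2, a mitotic cyclin, gave signals of 62.5, 50.5 and 44.7 on the WBF arrays and 362, 429 and 387 on the W5D arrays (log2 change 2.91, SE 0.25, adjusted p = 1.46e-06), the only member past 4-fold. CDKB2-1, a mitotic cyclin-dependent kinase, went from 145 to 389 (adjusted p = 0.000221) and CYCD2-2, a D-type cyclin, from 89.0 to 244 (adjusted p = 6.06e-05). The centromere histone CENH3 rose by 0.73 (SE 0.14, adjusted p = 0.00125). The histone H2B.7 rose by 0.41 (adjusted p = 0.0159), a call lost without WBF replicate 1 or 2 or W5D replicate 2 (adjusted p 0.0526 to 0.0703). Ribosomal proteins rose together by a small amount, 8 of 10 (5 without W5D replicate 2) with a median of 0.33, RPL3 by 0.60, RPL7A-2 by 0.59 and RPL7 by 0.44. Of 34 kinesins, a family chosen after its values were seen, 13 passed as higher and 3 as lower. The higher count was 9 without WBF replicate 3, near the 26.5% of all genes, and 10 without W5D replicate 2 or 3.

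MADS-box factors changed in both directions. In the list of ovule, seed and pistil factors 5 of 9 passed as higher and 3 as lower (median 0.67). OsMADS29, the Bsister factor encoded by FST, gave signals of 116, 123 and 106 on the WBF arrays and 1268, 1523 and 1263 on the W5D arrays (log2 change 3.55, SE 0.12, adjusted p = 1.13e-10). OsMADS21, a D-class factor of the ovule, gave signals of 63.3, 59.8 and 45.8 on the WBF arrays and 415, 558 and 341 on the W5D arrays (log2 change 2.94, SE 0.18, adjusted p = 4.15e-08), and the D-class factor OsMADS13 went from 420.1 to 1025 (adjusted p = 1.69e-06). No W5D array overlapped a WBF array for these 3 genes. The C-class factors differed in direction, since OsMADS58 rose by 0.67 (adjusted p = 0.000331) and OsMADS3 fell by 0.44 (adjusted p = 0.00786). OsMADS6, which acts in floral meristem and ovule, fell by 0.64 (adjusted p = 0.000645).

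Factors of the other floral organs mostly fell or did not pass the test. Of 12 floral organ factors, 1 passed as higher and 5 as lower, with a median of -0.15. OsMADS16, the B-class factor of lodicules and stamens, gave signals of 6712, 5861 and 6052 on the WBF arrays and 933, 766 and 1182 on the W5D arrays (log2 change -2.71, SE 0.14, adjusted p = 8.64e-09). OsMADS2 and OsMADS4, the other B-class factors, went from 8617 to 2346 (adjusted p = 1.02e-08) and from 2096 to 970.5 (adjusted p = 2.94e-06). OsMADS34, an E-class relative of the inflorescence, fell by 2.13 (adjusted p = 1.38e-06). The 6 markers of flower organs gave 5 lower and 1 higher calls, and their summed signal was 20480 to 22728 on the WBF arrays and 10660 to 11205 on the W5D arrays. The part of changing organ numbers in these values was not tested.

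Transcripts of mature pollen fell steeply or did not pass the test. Of 10 genes in that list, 5 passed as lower, all by more than 100-fold, none passed as higher, and the median change was -3.58. EXPB10, a beta-expansin related to grass pollen allergens, gave signals of 10452, 9262 and 7407 on the WBF arrays and 11.5, 11.6 and 9.20 on the W5D arrays. Its change was -9.70 (SE 0.16, adjusted p = 1.83e-13). EXPB9, a relative of it, gave signals of 14505, 14648 and 14047 on the WBF arrays and 77.6, 98.9 and 54.5 on the W5D arrays (log2 change -7.59, SE 0.26, adjusted p = 9.2e-11). The actin depolymerizing factors ADF9, ADF6 and ADF1 had changes of -9.02, -7.60 and -6.70. The other 5 members, FH5, RAC7, RAC2, CPK5 and CPK8, did not pass the test, with changes between -0.45 and 0.24. Of the 2 probe sets of RAC2, the one not used in the list passed as higher. RAC7 was the only one of 7 pollen markers that could be matched, and its change was -0.28 (adjusted p = 0.075). WBF replicate 3 was the lowest WBF array for 703 of the 1180 probe sets that fell at least 4-fold.

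The 10 largest falls of all genes included EXPB10 and RTS, a tapetum gene. The other 8 carried no name in the annotation used. Among them LOC4329295 gave signals of 8129, 7977 and 6358 on the WBF arrays and 5.99, 8.88 and 7.57 on the W5D arrays (log2 change -9.98, SE 0.17, adjusted p = 2e-13), and LOC4341714 had WBF signals of 11984 to 13716 and at most 15 in W5D. All 10 fell by 9.41 to 9.98 on the log2 scale.

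In families of kinases and transporters, a few members fell to signals below the median of the arrays and many did not pass the test. These families were chosen after their values were seen, and of all genes 25.1% passed as lower and 26.5% as higher. Of 20 calcium-dependent protein kinases, 8 passed as lower, 5 of them at least 4-fold, and 3 as higher. CPK29 gave signals of 2990.2, 3568 and 3815 on the WBF arrays and 24.2, 24.1 and 17.4 on the W5D arrays (log2 change -7.31, SE 0.22, adjusted p = 2.62e-11), whereas CPK23 gave signals of 449, 371 and 406 on the WBF arrays and 1683, 3966 and 3485 on the W5D arrays (log2 change 2.81, SE 0.25, adjusted p = 1.59e-06). Of 24 CBL-interacting protein kinases, which answer to calcium sensors, 11 passed as lower and 5 as higher (3 without WBF replicate 1 or 2 or W5D replicate 1 or 3), and CIPK30 fell by 6.75 (SE 0.13). Of 23 calmodulin-like proteins, 11 were lower and 4 higher. Of 23 actin-binding factors, villins and formins, 11 were lower and 7 higher, the pollen ADFs included. Of 22 HAK potassium transporters, 10 were lower and 3 higher.

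The YSL transporters, which carry metals bound to nicotianamine, changed in both directions. Of 15 measured, 7 passed as lower and 4 as higher, against 25.1% and 26.5% of all genes. Among them 2 pairs of adjacent genes were looked at, chosen after their values were seen. YSL7 gave signals of 3628, 3771 and 3996 on the WBF arrays and 25.6, 24.6 and 24.5 on the W5D arrays (log2 change -7.25, SE 0.21, adjusted p = 1.66e-11), and its direct neighbour on chromosome 2, YSL8, fell by 3.66 (adjusted p = 6.51e-10). On chromosome 4 YSL12 gave signals of 95.3, 122 and 139.9 on the WBF arrays and 1094, 1021 and 888 on the W5D arrays (log2 change 3.08, SE 0.26, adjusted p = 1.05e-06), and the gene next to it, YSL13, rose by 1.58 (adjusted p = 7.48e-06).

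Anther wall transcripts fell as well, with a wider spread between the WBF pools. Of 14 genes of tapetum and anther wall, 7 passed as lower and 3 as higher (median -0.31), against 25.1% and 26.5% of all genes. RTS, a tapetum gene of rice, gave signals of 14625, 6518 and 15621 on the WBF arrays and 20.0, 14.5 and 11.9 on the W5D arrays. It changed by -9.56 (SE 0.51, adjusted p = 1.04e-08), and WBF replicate 2 was well below the other WBF arrays. C6, a lipid transfer protein of the tapetum, gave signals of 1258, 218 and 851 on the WBF arrays and 13.0, 12.4 and 10.1 on the W5D arrays (log2 change -5.71, SE 0.54, adjusted p = 3.08e-06), and without WBF replicate 2 its change was -6.46. RAFTIN1, a protein of pollen wall assembly, fell by 5.14, and the tapetum factors TDR and EAT1 fell by 4.36 and 2.69, TDR with WBF signals of 254 to 297. Of the tapetum markers all 3 measured fell, with a summed signal of 613 to 1630 on the WBF arrays and 44.0 to 45.7 on the W5D arrays. GAMYB, a gibberellin-response factor of the anther, went from 1254 to 507 (adjusted p = 3.61e-06). AP25, an aspartic protease known in rice from tapetum degeneration, was among the 3 genes of its list that passed as higher. Its signals were 123, 139 and 132 on the WBF arrays and 1331, 1924 and 1565 on the W5D arrays, a change of 3.60 (SE 0.17, adjusted p = 2.06e-09).

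**Figure D2:**
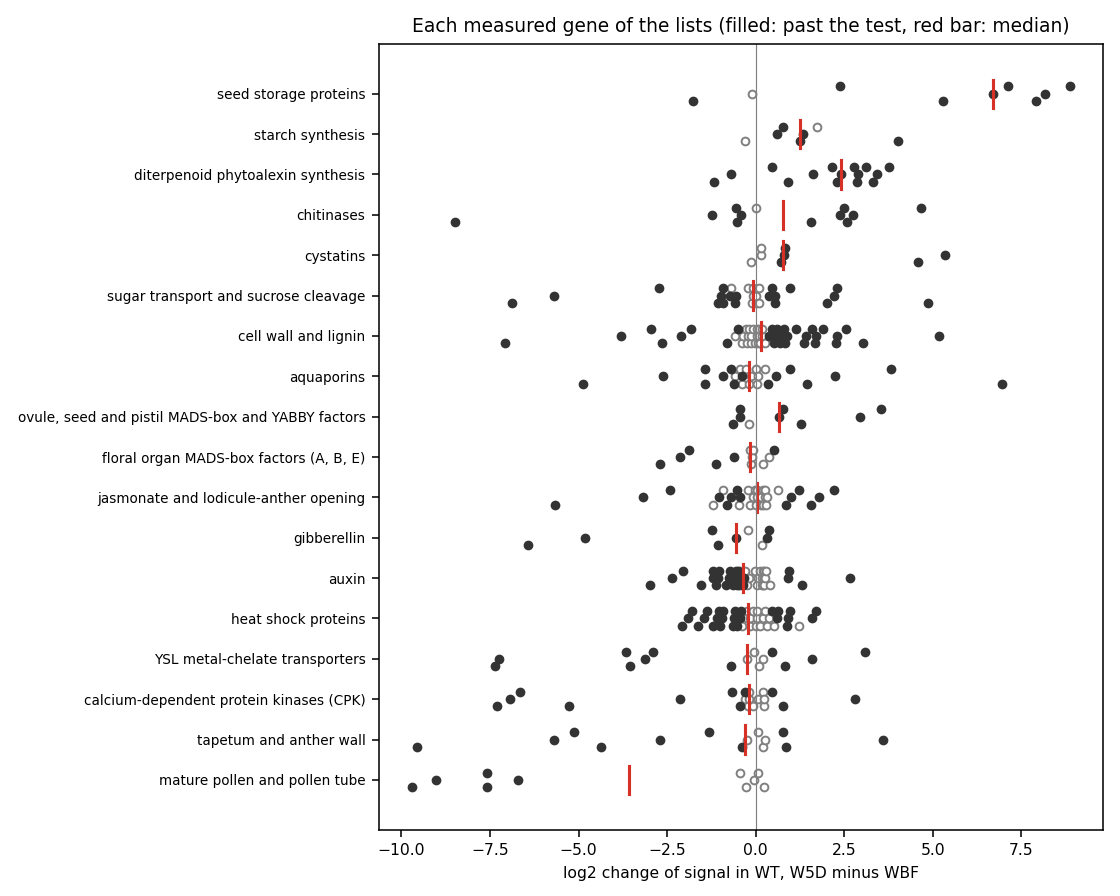
Log2 change of signal from WBF to W5D (x axis) of each measured gene in 18 lists, with filled points for genes past the test, open points for the others and red bars for the medians. Storage proteins spread up to 8.88 and pollen genes down to -9.70, and most other lists hold members that moved both ways.

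Some gibberellin synthesis genes fell from high levels. Of 35 names in the gibberellin list 9 genes were measured. Of these, 5 passed as lower, 2 of them at least 4-fold, and 2 passed as higher (median -0.56), against 25.1% and 26.5% of all genes. The higher count was 0 or 1 without any single WT array but WBF replicate 3. KAO, which oxidizes ent-kaurenoic acid, gave signals of 1967, 2516 and 1560.3 on the WBF arrays and 32.7, 23.3 and 15.7 on the W5D arrays (log2 change -6.43, SE 0.26, adjusted p = 6.21e-10). CPS1, which makes the first ent-copalyl precursor of gibberellin, gave signals of 1383, 1484 and 1121 on the WBF arrays and 63.0, 35.2 and 45.8 on the W5D arrays (log2 change -4.82, SE 0.21, adjusted p = 1.27e-09). GA20OX3, a late oxidase of the pathway, went from 1287 to 551 (adjusted p = 4.94e-06). The summed signal of the list was 6656 to 7859 on the WBF arrays and 2841 to 2907 on the W5D arrays.

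Auxin genes fell or did not pass the test, with few exceptions. Of 47 measured, 24 passed as lower and 4 as higher, against 25.1% and 26.5% of all genes, with a median of -0.36. IAA31, an Aux/IAA repressor, gave signals of 596, 617 and 577 on the WBF arrays and 74.6, 67.6 and 86.8 on the W5D arrays (log2 change -2.97, SE 0.22, adjusted p = 3.47e-07). GH3-8, which conjugates auxin to amino acids, fell by 2.35 (adjusted p = 5.07e-06). PIN5A, a putative auxin carrier, rose instead, from 25.1 to 161 (log2 change 2.67, adjusted p = 1.1e-07). Of 29 cytokinin genes, 13 passed as lower and 10 as higher. LOGL6, an enzyme of cytokinin activation, fell by 2.28 (adjusted p = 2.58e-08), while the response regulators RR33 and RR5 rose by 3.30 and 1.73 (adjusted p = 3.11e-05 and 3.13e-06), RR33 from signals of 13.1 to 13.8 to signals of 122 to 150.1.

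Genes of jasmonate, a hormone of anther opening, changed in both directions. Of 33 genes measured, 8 passed as lower and 6 as higher, against 25.1% and 26.5% of all genes, with a median of 0.04. Without single WT arrays the lower count was 6 to 11. TIFY11A, a JAZ repressor that jasmonate induces, gave signals of 3354, 3041 and 3213 on the WBF arrays and 72.5, 44.0 and 77.1 on the W5D arrays (log2 change -5.67, SE 0.20, adjusted p = 1.55e-10). TIFY11E, of the same family, and JAR1, which makes jasmonoyl-isoleucine, had changes of -3.18 (adjusted p = 2.46e-06) and -2.41 (adjusted p = 8.23e-09). OPR5, of the oxophytodienoate reductase family, rose by 2.20 (adjusted p = 0.000225).

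Sugar genes rose and fell in like numbers. Of 28 genes of sugar transport and sucrose cleavage, 9 passed as higher and 10 as lower, with a median of -0.07. Of all genes 26.5% passed as higher and 25.1% as lower. SUS3, a sucrose synthase of the grain, gave signals of 203, 218 and 155 on the WBF arrays and 3861, 7085 and 6350.3 on the W5D arrays (log2 change 4.88, SE 0.22, adjusted p = 1.88e-09). SUS1, another sucrose synthase, rose by 2.02 (adjusted p = 2.35e-05). SWEET11, a sugar exporter known in rice from grain filling, gave signals of 1675, 1819.7 and 1459 on the WBF arrays and 6888, 9315 and 8463 on the W5D arrays (log2 change 2.31, SE 0.16, adjusted p = 1.83e-07), and the monosaccharide carrier MST3 rose by 2.20. SWEET5, a carrier of the same family as SWEET11, gave signals of 4305, 5272 and 6231 on the WBF arrays and 42.3, 47.0 and 44.6 on the W5D arrays (log2 change -6.87, SE 0.20, adjusted p = 2.24e-11). MST5, a monosaccharide carrier known from rice pollen, fell by 5.68 (SE 0.23).

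Cell wall genes rose more often than they fell. Of 50 measured, 22 passed as higher and 8 as lower, against 26.5% and 25.1% of all genes, with a median of 0.15. EXPB7, a beta-expansin, gave signals of 74.2, 81.2 and 65.9 on the WBF arrays and 2365, 2945 and 2711 on the W5D arrays (log2 change 5.18, SE 0.15, adjusted p = 2.16e-11). EXPA5, an alpha-expansin, rose by 2.30, and the cellulose synthases of secondary walls CESA9, CESA7 and CESA4 by 1.70, 1.42 and 0.82 (adjusted p = 0.000417, 0.000488 and 0.0157). The call of CESA4 was lost without WBF replicate 2, W5D replicate 1 or W5D replicate 3 (adjusted p 0.0528 to 0.0785). All 3 of them were lowest on replicate 2 of both stages. EXPA32, another alpha-expansin, gave signals of 2030.3, 2255 and 2800.3 on the WBF arrays and 24.9, 17.0 and 12.1 on the W5D arrays (log2 change -7.09, SE 0.23, adjusted p = 5.3e-11). EXPB6, EXPB2 and EXPB3 stand next to each other on chromosome 10, and did not move as a block. EXPB6 and EXPB3 rose by 3.03 and 2.28, and EXPB2 between them fell by 3.80 (adjusted p = 2.64e-08).

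Water channels moved in both directions. Of 25 aquaporins, 7 passed as higher, 8 as lower and 10 did not pass, with shares near the 26.5% and 25.1% of all genes. PIP1-3, of the plasma membrane, gave signals of 271, 136 and 115 on the WBF arrays and 2110.3, 2084 and 2721 on the W5D arrays (log2 change 3.82, SE 0.27, adjusted p = 2.14e-07). TIP2-1 and TIP1-2, of the vacuole membrane, fell by 4.87 and 2.63 (adjusted p = 2.46e-09 and 2.78e-08). Among the vacuolar aquaporins named here, which were picked for their large changes, TIP3-1 and TIP3-2, described above, rose instead.

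Heat shock genes fell more often than they rose. Of 42 measured, 18 passed as lower and 8 as higher (5 without WBF replicate 1), with a median of -0.20. The shares of all genes were 25.1% lower and 26.5% higher. HSP18.0, a small heat shock protein, gave signals of 10638, 10431 and 11254 on the WBF arrays and 5479.7, 4565 and 5100.1 on the W5D arrays (log2 change -1.10, SE 0.12, adjusted p = 1.12e-05). The small heat shock proteins HSP24.1 and HSP18.6 fell by 1.92 and 1.80, and the heat shock factor HSFA2A by 2.08 (adjusted p = 5.64e-05), while the factor HSFB1 rose by 1.71 (adjusted p = 2.99e-07). HSP18.0 and HSFA2A were each called on 1 of 3 probe sets, and HSP18.6 on 2 of 3.

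Genes of green tissue passed as higher about as often as all genes, and less often as lower. Of 15 genes of photosynthesis and chlorophyll, 4 passed as higher and 1 as lower, against 26.5% and 25.1% of all genes. RBCS, the small subunit of Rubisco and the only green marker matched, went from 4009 to 3390.0 with overlapping arrays (adjusted p = 0.117). Of its 4 probe sets, 1 passed as lower. RCABP89, a chlorophyll-binding protein, rose by 0.96 (adjusted p = 0.000442), the photosystem I subunit PSAG fell by 0.78 (adjusted p = 0.000474), and SGR, which acts in chlorophyll breakdown, rose by 1.38 (adjusted p = 2.66e-05).

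**Figure D3:**
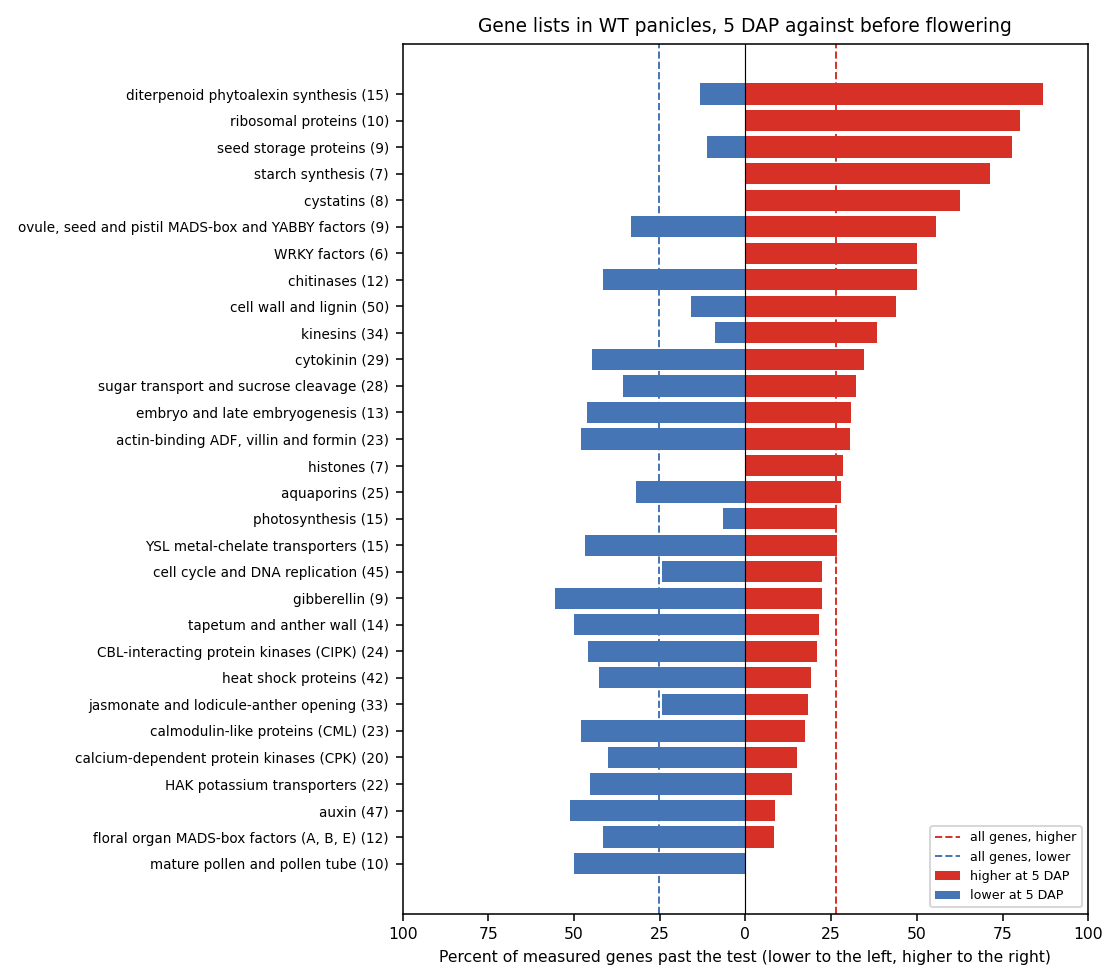
Percent of measured genes past the test in WT (x axis, lower at 5 DAP to the left and higher to the right) for the 30 lists with at least 5 measured genes, with the number measured in brackets. Dashed lines give all genes, 25.1% lower and 26.5% higher. Diterpenoid phytoalexin genes, 13 of 15 higher, reach farthest right of these and auxin genes, 24 of 47 lower, are among the lists with most lower calls.

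Diterpenoid phytoalexin genes, chosen after their values were seen, rose almost as a whole. Momilactones and phytocassanes are antimicrobial diterpenoids that rice makes from the same early precursor steps as gibberellin. Of 15 such genes 13 passed as higher, 10 of them at least 4-fold, and 2 as lower, with a median of 2.40. KSL7, a kaurene synthase-like cyclase, gave signals of 27.3, 55.2 and 41.5 on the WBF arrays and 618, 527 and 479 on the W5D arrays (log2 change 3.76, SE 0.27, adjusted p = 1.79e-07). CYP71Z7, a cytochrome P450 of the same chromosome 2 cluster, gave signals of 483, 631 and 511 on the WBF arrays and 6829, 4933 and 4641 on the W5D arrays (log2 change 3.32, SE 0.18, adjusted p = 1.51e-08), and CYP76M8 of the same cluster rose by 2.15. On chromosome 4 the momilactone genes CPS4, CYP99A3, OsMAS, KSL4 and CYP99A2 stand in a row, with 1 gene between CYP99A3 and OsMAS, and rose by 2.78, 2.29, 2.89, 2.40 and 3.11. The chromosome 2 cluster was not uniform. CYP71Z6 and KSL5, which lie within it, changed by -0.69 and -1.18, both past the test, but that of CYP71Z6 (adjusted p = 0.044) was lost without any single WT array but W5D replicate 1 (adjusted p 0.0641 to 0.191) and in a fit of the WT arrays alone (0.0722).

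Chitinases, enzymes that break chitin, also moved both ways. Of 12 measured, 6 passed as higher and 5 as lower, or 3 as lower without WBF replicate 1 or W5D replicate 3. The shares of all genes were 26.5% higher and 25.1% lower. Cht7 gave signals of 10469.7, 10188 and 10841 on the WBF arrays and 28.1, 37.5 and 23.8 on the W5D arrays (log2 change -8.49, SE 0.17, adjusted p = 5.19e-13), a fall as large as that of the pollen genes. Cht11 gave signals of 771, 769.7 and 948 on the WBF arrays and 6728, 4654 and 5431 on the W5D arrays (log2 change 2.75, SE 0.15, adjusted p = 1.23e-08), and Chib3H-h rose by 4.67 (SE 0.45, adjusted p = 3.47e-06) with W5D signals of 363 to 1187. Of 6 WRKY factors, 3 passed as higher and none as lower.

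**Figure D4:**
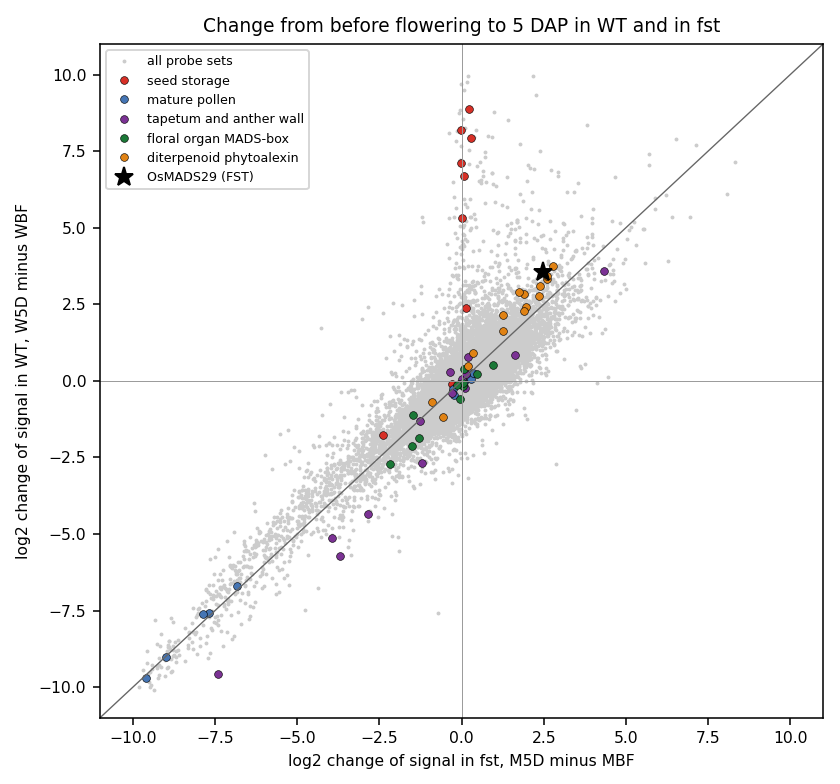
Log2 change from before flowering to 5 DAP in WT (y axis, W5D minus WBF) against fst (x axis, M5D minus MBF) for all probe sets in grey, with 5 lists in colour and OsMADS29 as a star. The diagonal line marks equal changes. Storage genes reach 8.88 in WT and none of them passed as higher in fst, where GLUA2 fell by 2.40, and the pollen genes lie close to the diagonal.

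The same stages were compared in fst, which flowers but sets no seed. Most falls were found there too. Of the 1180 probe sets that fell at least 4-fold in WT, 993 (84.2%) did so in fst too, with medians of -3.43 in WT and -3.70 in fst, and 1151 passed as lower in fst. Of the rises, 412 of 970 (42.5%) rose at least 4-fold in fst too, with medians of 2.74 and 1.79. Here the WT values chose the probe sets, so a smaller change in fst is favoured on both sides. The stage change differed between WT and fst, as a test of the interaction, for 3636 of all probe sets (6.35%), for 397 of the 970 rises and for 248 of the 1180 falls. Leaving out single WT arrays took the 3636 to between 2159, without WBF replicate 1, and 3163, and without W5D replicate 3 it was 2291.

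Among the rises of at least 4-fold, the 5 genes with the largest differences were LOC9270227, LOC4341135, GLUB5, LOC4329275 and GLUA3, all of storage proteins. GLUB5 had means of 10.8 and 12.6 in fst, and its stage changes differed by 8.64 (adjusted p = 1.01e-07). SSIIA, NF-YB1 and TIP3-1 differed by 4.41, 4.50 and 4.90 (adjusted p = 5.91e-05, 0.0176 and 0.00022). In M5D, NF-YB1 was at 168, 17.7 and 13.9, so that 1 fst array held some signal of it. Part of the rise was shared for OsMADS29 (log2 change in fst 2.46, difference 1.09, adjusted p = 0.00326) and SUS3 (log2 change in fst 2.84, difference 2.04, adjusted p = 0.00244). OsMADS29 started higher in fst, with means of 115 in WBF and 227 in MBF, and ended at 1351 in W5D and 1259 in M5D. The mitotic genes CYCB2-2 and CDKB2-1 had stage changes in fst of 1.10 and 0.15, the latter not past the test, and differed by 1.81 and 1.30 (adjusted p = 0.0109 and 0.0274), while CYCD2-2 did not pass (-0.68, SE 0.27, adjusted p = 0.156).

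For other rises the difference did not pass the test. EXPB7 rose by 5.18 in WT and 5.24 in fst, a difference of -0.06 (SE 0.22, adjusted p = 0.904). PIP1-3 differed by -0.12 (SE 0.39), SWEET11 by 0.10 (SE 0.23), OsMADS21 by 0.04 (SE 0.25), and Cht11 by 0.10 (SE 0.21). AP25 differed by -0.73 (SE 0.23, adjusted p = 0.084), with the larger rise in fst. The 5 genes picked for having the most alike rises, a chitinase gene (LOC4351188) and 4 without a name, rose by 2.14 to 3.85 in WT and by the same within 0.01 in fst, as their choice fixed. Of the 15 diterpenoid genes 12 passed as higher in fst too, where 28.8% of all genes did, and the difference was called for 1, CYP76M8, against 10.6% of all genes.

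Over all genes with 1 probe set each, the stage change differed between WT and fst for 10.6%. None of the 10 pollen list members had a called difference, which is near that share, and 3 of the 14 genes of tapetum and anther wall had one. The difference of EXPB10 was -0.09 (SE 0.22). TDR, EAT1 and RAFTIN1 fell further in WT, by -1.52, -1.49 and -1.19 (adjusted p = 0.000593, 0.00201 and 0.0408), from lower MBF means in fst, 108 for TDR against 271 in WBF. RTS and C6, with their spread in WBF, did not pass (differences -2.15 and -2.02, adjusted p = 0.101 and 0.139). LOC4348109, described as a protease inhibitor, seed storage and lipid transfer family protein, gave signals of 9998, 257 and 3058 on the WBF arrays and 8.88, 11.6 and 11.1 on the W5D arrays. Its change was -7.57 (SE 0.94, adjusted p = 3.86e-05), against -0.72 in fst, where its MBF mean was 20.7. The WBF arrays differed so much that the WT change was -6.40 without WBF replicate 1 and -9.04 without replicate 2. LOC4352856, described as thaumatin-like, gave signals of 1148, 1003 and 962 on the WBF arrays and 151, 159 and 63.2 on the W5D arrays (log2 change -3.17, SE 0.34, adjusted p = 9.25e-06) and was at 50.7 in MBF. LOC4334726, without a known description, fell by 2.02 in WT and rose by 1.05 in fst (difference -3.06, adjusted p = 8.96e-05). LOC4331103, with no name, fell by 3.32, or by 4.20 without WBF replicate 3, and LOC4343037, described as thaumatin family, by 5.11, with differences of -3.04 and -3.18 (adjusted p = 0.0263 and 0.002). The MBF means of these genes were 10.6 and 36.3, against 102 and 321 in WBF.

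Some falls were weaker in WT than in fst. LFL1 fell by 2.62 in WT, to 79.6 in W5D, and by 5.22 in fst, to 19.6 in M5D (difference 2.60, adjusted p = 0.00141). The changes in WT and fst were -2.15 and -5.09 for CPK21 (adjusted p of the difference 0.000877), -1.92 and -3.58 for HSP24.1 (0.00262) and -1.10 and -2.36 for HSP18.0 (0.000918). WX1 had a change of 1.72 in WT that did not pass and fell by 4.28 in fst, from an MBF mean of 918, and the stage changes differed by 6.0 (adjusted p = 0.0109). Its transcript was present before flowering in both genotypes.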

How the data were processed

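Total RNA of whole panicles was hybridized to the Affymetrix Rice GeneChip, 3 arrays in each of 4 groups. The authors used Affymetrix Expression Console to compute RMA intensity values, a method that subtracts background, makes the arrays' distributions equal and combines the probes of a set, and deposited the intensities on a linear scale in 1 table, with no detection calls. No source used here gives their versions. Median signals were 31.3 to 32.7 on the WT arrays, and no 2 arrays held identical values. The number of arrays limits the precision.

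On log2 signals (none below the floor of 1), limma fitted group means to 57258 probe sets over all 12 arrays, with version 3.58.1 in R 4.3.3 (lmFit and eBayes, 8 residual degrees of freedom). The 123 control probe sets did not enter. Contrasts were W5D minus WBF, M5D minus MBF and their difference. P was adjusted by Benjamini-Hochberg over all probe sets, with a threshold of 0.05. Errors of signals are SD over 3 arrays. The fit was tested on simulated data.

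Probe sets were named with the platform's gene table and RefSeq symbols: 22436 had 1 gene, 95 several and 34727 none, and of 17905 genes 2458 carried a name. The lists held 819 names, of which 434 matched a measured gene, so they miss members, and each gene was represented by its brightest probe set on average. Descriptions of unnamed genes come from the study's annotation. Gene order is that of the assembly ASM3414082v1, and no coordinates are given, as the array's build is not named. The arrays compared, the lists and the families were chosen with earlier results of these data known.

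Named genes were OsMADS29, the 10 largest rises and falls (1 gene, separate arrays, higher mean above the median of all signals), the 3 largest called changes of each list, and the 5 changes of at least 4-fold in each direction that were most and least alike in WT and fst. Further genes of the lists and of 11 families were named after their values were seen. Alternatives were another quantile normalization, centring on the median, filters on dim or cross-hybridizing probe sets, a single probe set per gene, the WT arrays alone, the replicate number as a block, eBayes with trend and robust, array weights, a threshold of 0.01, and leaving out each WT array.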

Additional observations from a re-analysis of the deposited data

Results flagged for a closer look

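The stage change differed between WT and fst, by a test of the difference itself in limma, for 3636 probe sets. The genes below are named ones among them, with values of WT minus fst on the log2 scale, from 3 arrays a group.

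Storage protein genes passed as higher in WT and did not pass in fst. The differences were 9.76 for LOC9270227, 8.89 for LOC4341135, 8.64 for GLUB5, 8.20 and 8.27 for LOC4329275 on separate probe sets, 8.20 for GLUA3, 8.15 for RAG2, 7.64 for GLUA1, 7.15 for GLUC, 5.28 for PROLM25 and 2.24 for RAG1. The Brittle-1 gene LOC4328656 differed by 7.60, the starch genes SSIIA and AGPS2 by 4.41 and 0.96, the endosperm factor NF-YB1 by 4.50, LOC4343901 by 7.09 and LOC4350574 by 5.95, all higher in WT past the test and not in fst. In M5D, LOC4343901 was at 131, 21.2 and 17.2 and LOC4350574 at 290, 12.7 and 10.9. Replicate 1 was the highest M5D array for both, as for NF-YB1. WX1 differed by 6.0, with a change that did not pass in WT and a fall in fst, and RSR1, which fell in WT and did not pass in fst, by -0.65. SUS3 differed by 2.04, LTP-2 by 2.57, TIP3-1 by 4.90, TIP3-2 by 2.24, OC-IV by 5.57 and OC-VI by 2.94.

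Other genes that were higher in WT, with a more positive stage change there than in fst, were CYCB2-2 (1.81), CDKB2-1 (1.30), CENH3 (0.94), VP1 (1.35), RR33 (2.13), RR5 (1.63), EXPA5 (1.38), Chib3H-h (2.88), CYP76M8 (0.89) and OsMADS29 (1.09). Genes that fell in both and less far in WT were CPK21 (2.95), LFL1 (2.60), HSP24.1 (1.66), HSP18.0 (1.26), EXPB2 (1.14) and YSL8 (0.89). EXPB2 passed narrowly, with an adjusted p of 0.05.

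Genes that fell in both and further in WT were TDR (-1.52), EAT1 (-1.49), RAFTIN1 (-1.19), OsMADS2 (-0.58), GA20OX3 (-0.69) and LOC4343037 (-3.18). OsMADS3 (-0.73), LOC4348109 (-6.85), LOC4352856 (-3.36) and LOC4331103 (-3.04) fell in WT and did not pass in fst, and LOC4334726 (-3.06) fell in WT and rose in fst. LOC4348109, LOC4352856 and LOC4331103 were already low in fst before flowering. Their MBF means were 20.7, 50.7 and 10.6, against 4438, 1038 and 102 in WBF.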

How the results depend on the processing

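For 161 named probe sets, 2392 values under an alternative were computed, of which 2356 kept direction and call, 26 lost the call, 9 gained it and 1 reversed, RAC2 without W5D replicate 3 (-0.070 to 0.0060 without single WT arrays, never past the test). The losses were those of EMP1, H2B.7, LTPL1, CESA4 and CYP71Z6, and the gains those of RAC7, RBCS, WX1, CPK8 and FH5. The causes were not tested. A single probe set per gene left 17905 features against 57258, and the counts were 5243 higher, 5046 lower, 553 at least 4-fold higher and 710 at least 4-fold lower, against 9364, 8554, 970 and 1180, and 2811 differed between WT and fst. At a threshold of 0.01 the number of probe sets whose stage change differed between WT and fst was 1206 in place of 3636, and without single WT arrays it was 2159 (without WBF replicate 1) to 3163, with 2291 without W5D replicate 3. Leaving out single WT arrays gave 7341 to 8565 higher and 6745 to 8397 lower probe sets. Centring on the median moved the median change from 0.06 to 0.02 and the share of higher calls from 52.3% to 47.9%.

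The deviations of WBF and W5D arrays of the same replicate number correlated at -0.05, 0.07 and -0.06, against -0.08 to 0.11 for unlike numbers. These values show no shared component by number, but cannot settle whether the pools were paired. With the replicate number as a block, 8419 probe sets were higher, 7944 lower and 2741 differed between WT and fst, and among the named probe sets only the call of LTPL1 was lost (adjusted p = 0.0576). Without the block these counts were 9364, 8554 and 3636. The filters left some named probe sets without a value. With 3 arrays a group and no detection calls, it is not known which of the lowest signals lie above background. The lower quartile was 10.1 to 10.7 on the WT arrays.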

Other observations

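Some members of the lists that were not described above moved by 2-fold or more, and were chosen after their values were seen. In the lignin pathway, 4CL5, 4CL3 and CAD2, enzymes of monolignol synthesis, rose by 2.55, 1.58 and 1.13 (adjusted p = 1.89e-06, 0.000187 and 0.000269), whereas 4CL2 fell by 2.64 (adjusted p = 1e-06) from a WBF mean of 116 to 19.3. OPR4, of the oxophytodienoate reductase family, went from 209 to 727 (adjusted p = 2.28e-05), and CKX11, a cytokinin oxidase, from 343 to 816 (adjusted p = 8.44e-05). The auxin-conjugating GH3-1 fell by 2.04 (adjusted p = 1.26e-05). Among aquaporins, NIP1-1 gave signals of 1622, 1557 and 1261 on the WBF arrays and 3946, 4146 and 3951 on the W5D arrays, a rise of 1.45 (adjusted p = 3e-07), and PIP2-2 fell by 1.42 (adjusted p = 8.53e-07). In none of these genes did the stage change differ past the test between WT and fst.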
